A study of Mus musculus with 8 samples.

Results

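The S100 genes encode a family of small calcium-binding proteins, and 10 of them were followed here: S100a1, S100a3, S100a4, S100a6, S100a8, S100a9, S100a10, S100a11, S100a13 and S100a16. They were chosen by name, through the RefSeq entry given for each probe, and were measured by 13 probes. The array named 20145 genes in all, of which 14503 were bright enough to be tested, and 8 of the 10 S100 genes were among these. S100a8 and S100a9 were not.

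S100 proteins are built around a pair of calcium-binding EF-hand loops and mostly work as dimers. Calcium opens a surface on the dimer that then holds a target protein, such as an annexin, a myosin or an enzyme. Some members are also released from cells and act on surface receptors such as RAGE (Ager) and the toll-like receptor Tlr4. In blood and vessels the family is best known for S100a8 and S100a9, the abundant calprotectin pair of neutrophils, and for S100a10, which with annexin A2 holds plasminogen activation at the endothelial surface.

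The cells came from mouse embryonic stem cells (strain C57BL/6, line iRUNX1) in which doxycycline switches on Runx1, a transcription factor needed for blood cells to form from endothelium, through a Tet-on system. Embryoid bodies were grown for 3.25 days, cells carrying the VEGF receptor Flk-1 were sorted, grown in blast medium, sorted for Flk-1 again and grown as hemogenic endothelium, the endothelial stage that gives rise to blood. The uninduced group (genotype label "control") had no doxycycline, and the induced group (genotype label "Runx1 expression") had 0.3 µl/ml overnight, the unit in which the labels give it. All groups came from the same inducible line. No cells lacking the inducible gene but given doxycycline were analysed here, and every difference compares cells with and without the drug. Each group had 3 replicates and 1 more array titled as a technical repeat, whose source RNA the labels do not name. The p-values therefore measure the spread between these arrays, and the technical repeats stayed out of every test except an alternative fit given in the last section.

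All 18 of a list of endothelial markers were well above background on all 6 replicate arrays. The 75th percentile of the signal ran from 338 to 973 over the replicate arrays, with between 54.6% and 69.7% of probes well above background. Runx1 had 2 probes, of which 1 was bright enough to be tested. That probe read -4.71, -4.72 and -4.28 on uninduced arrays 1, 2 and 3 and -6.14, -5.71 and -4.95 on the induced ones (log2, relative to the 75th percentile). On induced array 2 this probe lay below the lowest signal called well above background there (-5.59). It was thus kept for testing only through the uninduced group, and its difference rests on dim induced readings. The difference was -1.03 (adjusted p 0.126 by limma, or 0.0214 once replicate number entered as a block), and 0.27 when the arrays were scaled to added spike-in RNA. No source used here says whether the inducible construct carries the sequence under this probe, and it therefore does not check the group labels.

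Of the 8 S100 genes tested, S100a4 rose with doxycycline, 0 fell and 7 did not pass the threshold of adjusted p under 0.05 (limma, adjusted over all 14503 genes). Over all genes 4.14% rose and 2.17% fell, the shares against which the counts of the other lists in this fit can be read. At an unadjusted p under 0.05, 1 S100 gene was higher and 1, S100a3, was lower, beside 13.9% and 7.77% of all genes, the shares against which the other counts at that threshold can be read. The median difference of the 8 genes was 0.27 on the log2 scale, against 0.09 for all genes. In bulk RNA, fewer cells of a type and less RNA per cell cannot be told apart. When the replicate number entered the fit as a block, S100a4 rose and S100a3 fell, beside 9.37% and 6.81% of all genes, although S100a3 was higher when the arrays were scaled to added spike-in RNA (described at the end). The block counts of the other lists can be read against the same 9.37% and 6.81%.

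The promoter sequences of S100a4, S100a3 and S100a6 are shown because these genes had the largest differences of the 8 tested and lie near one another on chromosome 3. They are RefSeq sequences of the GRCm38.p6 assembly, the 250 bases before the annotated start, 5′ to 3′ on the plus strand. Capitals mark the letters TATAAA in S100a4 and S100a3, and TGTGGT or its reverse complement ACCACA in S100a6. TGTGGT is the core of the sequence that RUNX proteins bind. S100a3 has 4 annotated starts, and the window shown is the one that holds TATAAA.
S100a4, chr3:90603520-90603769: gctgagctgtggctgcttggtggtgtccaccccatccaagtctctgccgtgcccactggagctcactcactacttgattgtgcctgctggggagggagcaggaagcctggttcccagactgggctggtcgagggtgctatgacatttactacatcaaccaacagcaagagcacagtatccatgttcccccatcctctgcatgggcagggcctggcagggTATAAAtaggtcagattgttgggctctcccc
S100a3, chr3:90588313-90588562: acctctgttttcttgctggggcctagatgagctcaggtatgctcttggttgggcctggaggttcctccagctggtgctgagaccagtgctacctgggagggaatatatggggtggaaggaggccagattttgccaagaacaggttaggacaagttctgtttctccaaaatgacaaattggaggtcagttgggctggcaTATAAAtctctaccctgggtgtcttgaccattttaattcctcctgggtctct
S100a6, chr3:90612644-90612893: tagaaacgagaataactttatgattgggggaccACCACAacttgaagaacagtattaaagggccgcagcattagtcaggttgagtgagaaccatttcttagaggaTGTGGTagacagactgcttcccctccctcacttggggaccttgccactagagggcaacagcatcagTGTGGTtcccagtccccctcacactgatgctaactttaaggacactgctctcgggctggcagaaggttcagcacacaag

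In windows of 300 bases (250 before to 50 after each start), 9 of the 10 S100 genes had a sequence, in 13 windows, and S100a10 had none. TGTGGT on either strand was found in 3 of the 13 windows, those of S100a6, S100a9 and S100a16, and in 16.8% of all 32851 windows in the table. S100a6 held it at 3 places, beginning 217, 145 and 79 bases before the start. The related TGCGGT was found in 1 window, that of S100a1, against 6.45% of all windows. The window of S100a4, the S100 gene that rose, held neither. TATAAA on either strand was found in the windows of 4 genes, against 13.6% of all windows, and lay 31 bases before the start in S100a4, 30 before it in S100a8 and 52 before it in S100a3. In S100a9 it lay after the start. The AP-1 motif TGANTCA was found in the windows of S100a11 and S100a16, against 7.81% of all. A match is a description of these letters in this window and does not show a bound site.

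S100a4 encodes a protein that binds non-muscle myosin heavy chain and is known from motile cells. Its brighter probe read 2.37, 1.54 and 1.81 on uninduced arrays 1, 2 and 3, and 3.46, 3.22 and 3.12 on the induced arrays of the same numbers. All 3 induced arrays lay above all 3 uninduced ones, as they did for 19.6% of all genes. The means were 1.91 ± 0.42 and 3.27 ± 0.18 (SD, n = 3), a rise of 1.36 on the log2 scale (SE 0.24), or 2.56-fold, with an adjusted p of 0.0245 by limma. The rise was present in every pair of equal number, at 1.09, 1.68 and 1.31. Entering the replicate number as a block gave an adjusted p by limma of 0.00690.

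The call for S100a4 was lost in most fits with an array left out, all of them run without the replicate block. Leaving out 1 array at a time, the difference stayed between 1.17 and 1.59, and the adjusted p by limma ran from 0.0127 to 0.0845. It was under the threshold only without uninduced replicate 1, and over it without each of the other 5 arrays. Without the filter on dim probes, with more genes tested, the adjusted p was 0.0561.

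The other S100a4 probe gave the same direction. It read 2.33, 1.16 and 1.44 without doxycycline and 3.21, 2.63 and 2.69 with it. Here too the lowest induced array was above the highest uninduced one. This probe differed by 1.20 (SE 0.33). Its probe-level adjusted p by limma was 0.126, and 0.0184 under the replicate block. The first probe had 0.0341 and 0.0133 in the same fits over 32809 probes, in which 2.26% of probes rose without the block.

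**Figure D1:**
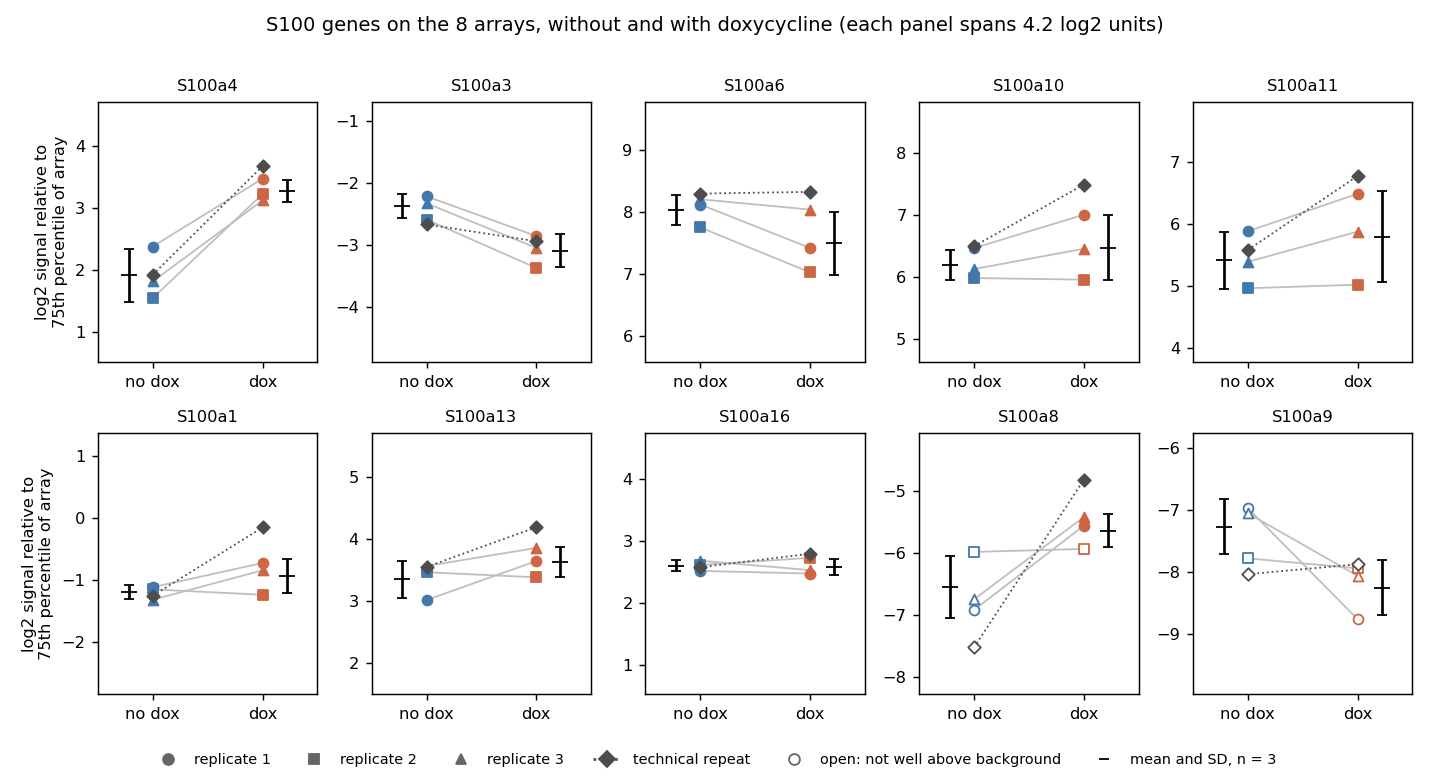
Level of each of the 10 S100 genes (log2 signal relative to the array's 75th percentile) on arrays without and with doxycycline; lines join arrays of equal replicate number, diamonds joined by a dotted line are the technical repeats, open symbols were not well above background, and bars show mean and SD (n = 3). S100a4 is higher with doxycycline in all 3 pairs without overlap of the groups and S100a3, on this scale, is lower in all 3, while S100a10, S100a11, S100a1 and S100a13 lie close together without and with doxycycline in replicate 2.

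S100a3 encodes a protein best known from the hair follicle cuticle. It read -2.22, -2.59 and -2.33 without doxycycline and -2.85, -3.37 and -3.05 with it. Every induced array was below every uninduced one, as was the case for 8.71% of all genes. S100a3 thus differed by -0.71 (SE 0.19). Its adjusted p by limma was 0.0885, and 0.0181 under the replicate block. The pairs differed by -0.64, -0.78 and -0.72, and the technical repeat arrays by -0.27. Among the settings run, S100a3 passed the threshold only with the replicate block, and with spike-in scaling its sign turned.

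S100a6 encodes calcyclin, which binds annexins and the ubiquitin-ligase partner Cacybp. It read 8.12, 7.75 and 8.20 without doxycycline and 7.42, 7.02 and 8.04 with it. Replicates 1 and 2 were lower with doxycycline by 0.70 and 0.72 and replicate 3 by 0.17, so the groups overlapped. On average S100a6 differed by -0.53 (SE 0.28). Its adjusted p by limma was 0.325, or 0.0869 under the replicate block. S100a3 and S100a6 were the 2 S100 genes that were lower in all 3 pairs with this scaling (higher on average with spike-in scaling), and S100a4 and S100a11 the 2 that were higher in all 3. Over all genes, 21.8% were lower and 37.8% higher in all 3 pairs.

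S100a10 and S100a11 encode the S100 proteins that bind annexin A2 and annexin A1. S100a10 read 6.46, 5.98 and 6.12 without doxycycline and 7.0, 5.95 and 6.45 with it, a difference of 0.28 (SE 0.29, adjusted p 0.592 by limma). S100a11 read 5.89, 4.97 and 5.40 without doxycycline and 6.49, 5.03 and 5.88 with it, a difference of 0.38 (SE 0.41, adjusted p 0.606). The 2 genes had the same order of arrays in the induced group, with replicate 1 highest and replicate 2 lowest, and the groups overlapped for both.

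S100a13 encodes a protein that takes part in the release of Fgf1 from cells, and S100a1 one that acts on calcium channels and contraction in heart muscle. S100a13 read 3.02, 3.47 and 3.57 without doxycycline and 3.65, 3.39 and 3.86 with it, a difference of 0.28 (SE 0.21, adjusted p 0.468 by limma). S100a1 read -1.11, -1.14 and -1.31 without doxycycline and -0.72, -1.23 and -0.84 with it, a difference of 0.26 (SE 0.18, adjusted p 0.435). The groups overlapped for both. The second S100a1 probe gave a difference of 0.26 (SE 0.21), as large as that of the first. S100a1 and S100a13 are transcribed head to head, on the minus and plus strands, and their promoter windows share 204 bases.

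S100a10, S100a11, S100a1 and S100a13 had a pattern in common over the pairs, which was noticed after their values were seen. Replicate 1 was higher with doxycycline by 0.54, 0.60, 0.39 and 0.63 in that order, and replicate 3 by 0.33, 0.49, 0.47 and 0.29. In replicate 2 the differences were -0.03, 0.06, -0.09 and -0.08. The median of all genes was 0.09, 0.06 and 0.11 in replicates 1, 2 and 3, so these 4 genes were above it in pairs 1 and 3. The pattern was not tested. On the induced technical repeat array, kept apart, 7 of the 8 tested S100 genes had their highest level of all 8 arrays, as did 41.0% of all genes.

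S100a16, which encodes a widely expressed family member, had a pair of probes that disagreed. The brighter probe read 2.52, 2.62 and 2.68 without doxycycline and 2.48, 2.73 and 2.53 with it, a difference of -0.03 (SE 0.14, adjusted p 0.926 by limma). The other probe, named for the same RefSeq entry, read -0.56, 0.69 and 1.49 without doxycycline and -2.45, -1.35 and 0.20 with it. It was lower with doxycycline in every pair, by 1.89, 2.04 and 1.29, although the spread between replicates was so wide that the groups overlapped. On average it differed by -1.74 (SE 0.76). Its probe-level adjusted p by limma was 0.301, and 0.0103 under the replicate block. The value for S100a16 thus depended on the probe, and which of them follows the gene was not tested.

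**Figure D2:**
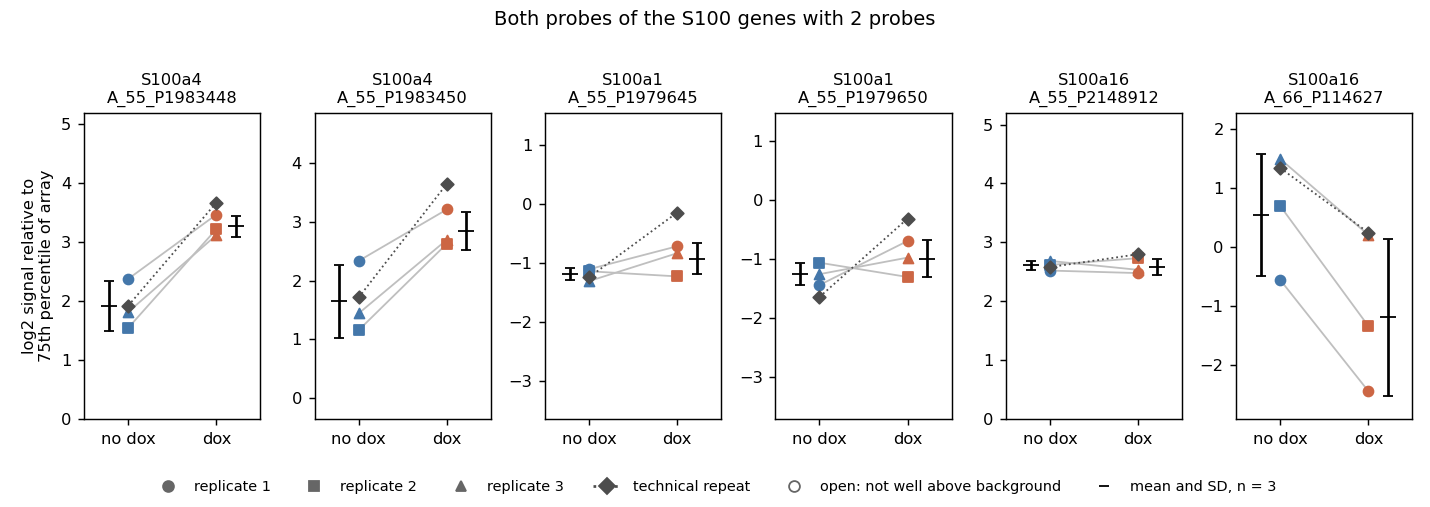
Both probes of S100a4, S100a1 and S100a16, each in a panel of equal height (log2 signal relative to the array's 75th percentile, arrays without and with doxycycline, lines joining equal replicate numbers, bars mean and SD, n = 3). Both probes of S100a4 are higher with doxycycline in every pair and those of S100a1 overlap between groups, while the second probe of S100a16 is lower in every pair and the first differs by -0.03.

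S100a8 and S100a9 encode the calprotectin pair. The S100a8 probe read -6.91, -5.98 and -6.74 without doxycycline and -5.55, -5.93 and -5.42 with it. It cleared the background on 0 uninduced arrays, on induced arrays 1 and 3 and on the induced technical repeat, where it read -4.81. The S100a9 probe was not well above background on any array, with readings between -8.76 and -6.97 on the replicate arrays. The S100a8 signal detected on the replicate arrays was so near the lowest signals called above background that no fold is given. With no filter on dim probes neither passed the threshold (adjusted p 0.216 and 0.218 by limma).

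Markers of neutrophils and granulocytes were followed beside this pair. Of 20 listed, 18 were on the array and 11 were tested: 3 rose, 0 fell and the other 8 missed the threshold. Their median difference was -0.10, and 1.19 with spike-in scaling. The list had 2 members lower at an unadjusted p under 0.05. Cebpe, a transcription factor of late granulocyte development, and Mmp9, a granule protease, did not clear the background without doxycycline on any array. With it they read 7.0-fold and 5.63-fold above a floor on this scale. The floor was the lowest signal called well above background on each uninduced array, or the probe's own where higher. Both passed the filter only through the induced group. Their adjusted p (0.00639 and 0.00198 by limma) rest on uninduced readings below background, so they are a description only. Ctsg, cathepsin G, rose by 1.83 (adjusted p 0.0234). After another background correction (normexp) none of the 3 passed, with differences of 0.89 for Cebpe, 0.75 for Mmp9 and 0.73 for Ctsg (adjusted p 0.145, 0.209 and 0.0948 by limma), and Ctsg also missed the threshold with no filter (0.0528). Under the block Mpo, myeloperoxidase, rose as well and Padi4 fell, the latter with its sign turned by spike-in scaling. Ngp, Mmp8, Fcnb, Retnlg and Cxcr2, genes of maturing neutrophils, were not well above background on any replicate array. The summed level of the whole list lay between 6.85 and 7.26 on uninduced arrays and between 6.86 and 7.10 on induced ones (log2 of the sum of each gene's brightest probe), so the groups overlapped. Csf3r, which differed by -0.10, made up 61.6% to 65.9% of that sum without doxycycline and 62.2% to 72.4% with it. That gene thus carried most of the sum.

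Markers of other cell types known to carry S100a4 were followed in the same way. Of 16 macrophage and monocyte markers on the array, 11 were tested, with 2 that rose, 1 that fell and a median of -0.32 (0.97 with spike-in scaling). Ccr2, a chemokine receptor of monocytes, cleared the background on 0 uninduced arrays and on all 3 induced ones. With doxycycline it read 7.31-fold above the floor described for Cebpe and Mmp9 (adjusted p 0.00348 by limma, from uninduced readings below background). Lyz1, a lysozyme detected on 1 of 3 uninduced arrays, rose by 4.58 (adjusted p 0.00857 by limma). Ccr2 and Lyz1 passed the filter only through the induced group, so their values are a description only. Csf1r, the receptor for M-CSF, fell by 1.33 (adjusted p 0.0258 by limma). With normexp Ccr2 differed by 1.16 and did not pass (adjusted p 0.0850), and Lyz1 rose by 1.89. Csf1r did not pass with spike-in scaling (-0.037, adjusted p 0.964) or with no filter (0.0581). In the blocked fit 3 rose and 4 fell. Those added included Lyz2, on 0 uninduced arrays well above background, which rose (but differed by -0.024 with normexp), and Cd14 and Mrc1, which fell. The summed macrophage level lay between 2.84 and 3.45 without doxycycline and between 1.83 and 2.40 with it. Csf1r made up 61.8% to 77.6% of that sum without doxycycline and 44.0% to 59.3% with it, so that gene carried much of the sum. C1qa and C1qc were not well above background on any replicate array. Of 16 fibroblast and mesenchymal markers, 15 were tested, 0 rose and 1 fell. Thy1 fell by 1.65 (adjusted p 0.0447 by limma), with 1 member higher at an unadjusted p under 0.05 and a median of -0.57 (0.72 with spike-in scaling). Only 2 of the 3 induced arrays had Thy1 well above background, so it passed the filter only through the uninduced group. Its values rest on dim induced readings and are a description only. The Thy1 call was lost under several settings, among them normexp (-0.79, adjusted p 0.149 by limma), spike-in scaling (-0.36, adjusted p 0.672) and no filter (0.0881). Under the block 1 rose, Pdgfra, and 7 fell. The 6 added were Col3a1, Dcn, Acta2, Fn1, Postn and Sparc, and 5 of these were higher with spike-in scaling, Dcn being the exception. Their summed level was 10.89 to 11.26 without doxycycline and 10.58 to 10.71 with it. Sparc, the largest contributor without doxycycline, made up at most 30.8% of it on any replicate array. The part of these cell types in the S100a4 result was not tested.

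Endothelial and early blood markers also differed between the groups. Of the 18 endothelial markers, 0 rose and 4 fell by limma, with a median of -1.21 (0.085 with spike-in scaling) and 0 members higher at an unadjusted p under 0.05. Sox17 fell by 3.54, Ecscr by 1.36, Tek, the angiopoietin receptor, by 1.13 and Eng, endoglin, by 0.92, with adjusted p from 0.00920 to 0.0413, but none of the 4 passed with spike-in scaling. There Tek and Eng turned sign, Ecscr differed by -0.066 (adjusted p 0.938 by limma) and Sox17 by -2.25 (adjusted p 0.0727). That scaling added 1.29 to the difference of every gene, so any fall smaller than 1.29 turned sign (described at the end). Tek and Eng also missed the threshold with median centring and with no filter. With the replicate block 1, Vwf, rose and 11 fell, beside 9.37% and 6.81% of all genes. Of the 7 falls added, the largest were Robo4 (-2.99), Emcn (-2.84) and Cldn5 (-2.55). With spike-in scaling 1 of the 7 turned sign, and these 3 differed by -1.69, -1.55 and -1.25. Under that scaling, fitted without the block, 0 of the 18 markers passed. Of 14 early blood markers 4 rose and 0 fell, with a median of 0.71 (2.00 with spike-in scaling) and 0 lower at an unadjusted p under 0.05. The transcription factors Myb, Ikzf1 and Gfi1 rose by 4.79, 4.17 and 3.37 and Spn, the surface protein CD43, by 4.51 (adjusted p from 0.00275 to 0.0145 by limma). Without doxycycline, only 2 of 3 arrays had Myb well above background and 1 had Ikzf1, so these values rest on dim signals there. Both genes passed the filter only through the induced group, and their values are a description only. With normexp the 4 rises were 3.38 for Myb, 1.82 for Ikzf1, 3.24 for Gfi1 and 2.83 for Spn, and all passed. In the blocked fit 6 rose, Spi1 (on 0 uninduced arrays well above background, and 0.14 with normexp) and Gata2 being added, and Lyl1 fell, with its sign turned by spike-in scaling. The summed endothelial level lay between 7.93 and 9.17 without doxycycline and between 6.83 and 8.16 with it, and the early blood level between 6.23 and 6.86 and between 6.04 and 7.07. Egfl7 made up 39.2% to 46.4% of the endothelial sum without doxycycline and 22.5% to 30.1% with it. Cd34 made up 48.5% to 63.7% of the early blood sum without doxycycline and 42.7% to 50.5% with it. The part of these markers in the S100a4 difference was not tested.

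The proteins that S100 proteins bind were described from lists of known partners. Of 12 annexins, the membrane-binding partners of S100a6, S100a10 and S100a11, 10 were tested, and 0 rose and 0 fell by limma, with 0 higher and 1 lower at an unadjusted p under 0.05. Their median was 0.11. Anxa2, the partner of S100a10, differed by -0.06 (SE 0.15, adjusted p 0.847). With the replicate block Anxa3 fell by 0.75 (adjusted p 0.0167), with the sign turned by spike-in scaling. Neither S100a10 and S100a11 nor any annexin passed the test without the block.

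Of 13 receptors for released S100 proteins, 10 were tested, with a median of -0.34 (0.95 with spike-in scaling). Emb, which encodes the surface glycoprotein embigin, rose by 1.83 (SE 0.27, adjusted p 0.0126 by limma), and 0 fell, with 3 lower at an unadjusted p under 0.05. Ager, which encodes RAGE, differed by 0.88 (SE 0.47, adjusted p 0.330), or -0.32 with normexp, and only 1 uninduced array had it well above background. Tlr4 differed by -0.73 (SE 0.23, adjusted p 0.132), and by 0.56 with spike-in scaling. With the replicate block Alcam, Cd14 and Ly96, the last a co-receptor of Tlr4, fell by 0.93, 0.95 and 0.92 (adjusted p 0.0121, 0.0126 and 0.0222), and all 3 were higher with spike-in scaling.

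Of 29 partners inside the cell, 25 were tested, with a median of 0.10. None rose by limma, with 3 higher at an unadjusted p under 0.05, and 2 fell. Fgf1, the growth factor whose release S100a13 takes part in, fell by 2.20 (SE 0.32, adjusted p 0.0127), or by 1.35 with normexp (adjusted p 0.0344). Dlc1, a RhoGAP that binds S100a10, fell by 1.05 (SE 0.19, adjusted p 0.0266), with the call lost when no filter was set (0.0621). With spike-in scaling Fgf1 differed by -0.91 (adjusted p 0.292) and Dlc1 by 0.24, so neither passed. Myh9, the non-muscle myosin heavy chain that S100a4 binds, differed by 0.01 (SE 0.14, adjusted p 0.968). With the replicate block Tpm1, a tropomyosin, rose by 0.77 (adjusted p 0.0165), and Plat, the tissue plasminogen activator, fell by 0.94 (adjusted p 0.00822; higher with spike-in scaling), with Fgf1 and Dlc1 as before.

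**Figure D3:**
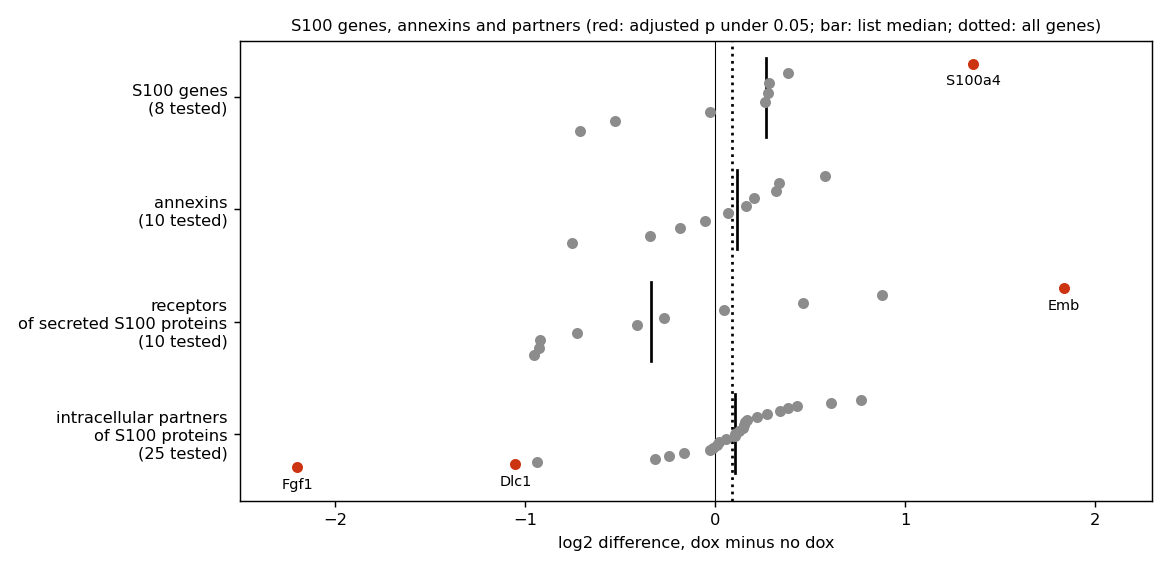
Log2 difference, with minus without doxycycline, of the 8 tested S100 genes, 10 annexins, 10 receptors and 25 intracellular partners; each point is a gene, red points had an adjusted p under 0.05 without the block, black bars are list medians and the dotted line is the median of all genes (0.09). S100a4 and Emb lie to the right and Fgf1 and Dlc1 to the left of the other points of their lists.

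A further 8 S100 genes outside the set followed were on the array, of which S100a2 and S100a5 were tested. S100a2 differed by -0.06 (SE 0.15, adjusted p 0.831 by limma) and S100a5 by -0.01 (SE 0.20, adjusted p 0.985), and neither had an unadjusted p under 0.05. S100a7a and S100a14 were well above background on 1 induced replicate array each, and S100a7l2, S100b, S100g and S100z on no replicate array. S100a14 was also well above it on the induced technical repeat.

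S100a4 and S100a5 are direct neighbours in the RefSeq gene order of chromosome 3, and S100a6 follows them. Their differences were 1.36, -0.01 and -0.53. Around and between the S100 genes of this region lie 96 other genes, counted up to 5 beyond the outermost, of which 61 are protein coding and 53 were on the array. Of 21 tested, 0 rose and 1 fell by limma, with a median of -0.30 (1.00 with spike-in scaling), and 2 were higher and 7 lower at an unadjusted p under 0.05. Sprr1a, an envelope protein of squamous epithelium, fell by 1.62 (SE 0.30, adjusted p 0.0287), with the call lost with spike-in scaling (-0.33, adjusted p 0.695) and with no filter (0.0621). With the replicate block 0 rose and 6 fell, beside 9.37% and 6.81% of all genes.

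**Figure D4:**
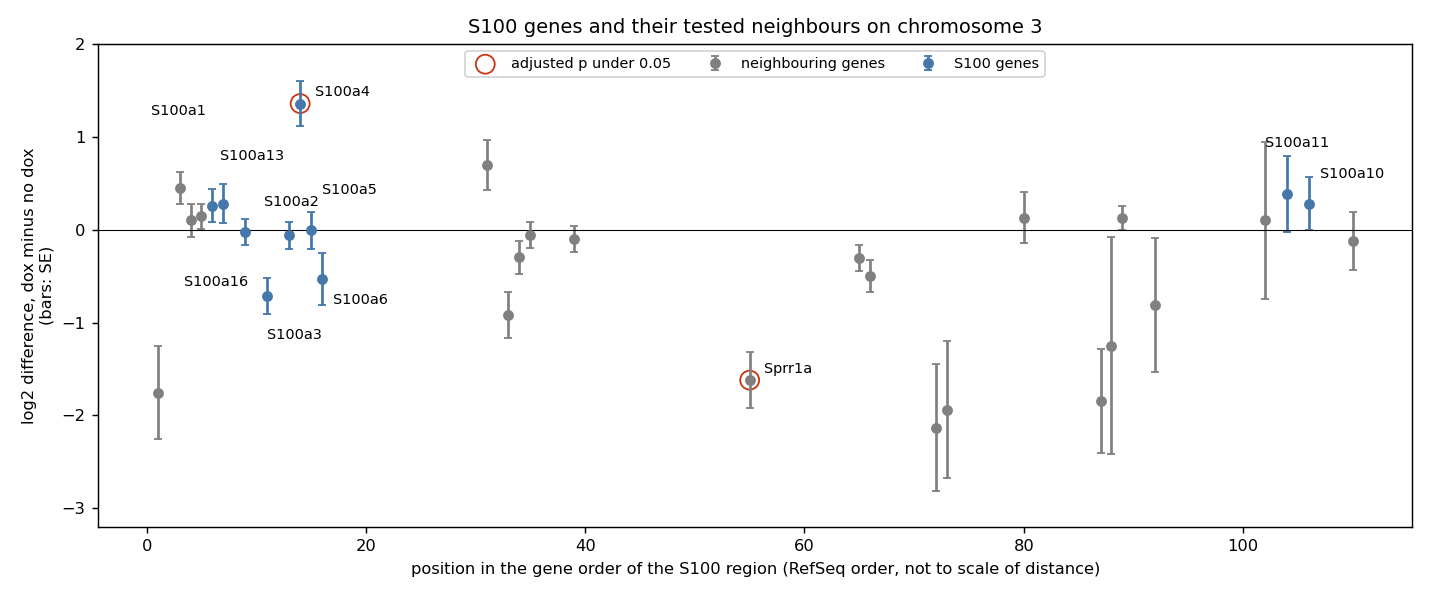
Log2 difference, with minus without doxycycline, of tested S100 genes (blue) and their tested neighbours (grey) by position in the gene order of chromosome 3, with SE bars from limma and circles where adjusted p was under 0.05. S100a4 (1.36) stands above S100a5 (-0.01) and S100a6 (-0.53) beside it, and the other circled gene is Sprr1a (-1.62).

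Leaving out 1 array at a time, in fits without the replicate block, weakened many of these calls. Cebpe, Mmp9, Ccr2, Lyz1, Ecscr, Myb, Spn and Ikzf1 passed in all 6 such fits (limma). Of these, Cebpe, Mmp9 and Ccr2 were well above background on 0 uninduced arrays, Lyz1 and Ikzf1 on 1 and Myb on 2. Their passing rests on dim uninduced readings, and Cebpe, Mmp9 and Ccr2 did not pass with normexp. Emb and Fgf1 passed in 4, and not without uninduced or induced replicate 2, where Emb had adjusted p of 0.0611 and 0.0548 and Fgf1 of 0.0580 and 0.0553. Dlc1, like S100a4, passed only without uninduced replicate 1, with adjusted p up to 0.0910 otherwise. Sprr1a passed only without induced replicate 1. Ctsg, Sox17 and Gfi1 passed in 3 fits, Csf1r, Thy1 and Eng in 1 and Tek in 0, with adjusted p for Tek from 0.0562 to 0.132.

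The genes whose profile over the 6 replicate arrays was most like that of S100a4 were Caprin2, Strip2 and Sh2b2. Likeness was the root mean square difference of centred log2 profiles, which was 0.12, 0.14 and 0.15. These genes differed by 1.24, 1.33 and 1.29 with doxycycline (adjusted p 0.0160, 0.0159 and 0.0133 by limma). They were chosen on the same arrays, so these values are a description. Leaving out 1 array at a time, Caprin2 and Strip2 passed in 2 of 6 fits and Sh2b2 in 4. Only 1 of 3 uninduced arrays had Strip2 well above background, and its difference was 0.044 with normexp. For S100a6 the nearest were Rsph9, Castor2 and Bcar3, at 0.07, 0.13 and 0.14, which differed by -0.41, -0.45 and -0.57 without passing the test (adjusted p 0.407, 0.277 and 0.334).

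The directions given hold relative to the other genes on the array. Against added spike-in RNA, the 75th percentile of induced arrays stood higher in each replicate, by 1.17 in the first, 0.80 in the second and 1.91 in the third. The mean shift was 1.29 ± 0.56 (SD, n = 3), and it was 0.14 between the technical repeats. Spike-in scaling added the mean shift to the difference of every gene. Any fall smaller than 1.29 therefore turned sign by construction, in the marker and partner lists too. With spike-in scaling the median gene therefore differed by 1.38, all 8 tested S100 genes were higher with doxycycline, and S100a3, S100a6 and S100a16 changed sign, to 0.58, 0.76 and 1.26. S100a4 differed by 2.65 (SE 0.78, adjusted p 0.0199 by limma). All 8 tested S100 genes had this same SE, so it does not measure the spread of a single gene. The test is against no difference, although the median gene differed by 1.38. S100a3 and S100a6, whose signs turned, lay within an SE of no difference. Relative to the median of all genes under the same scaling, S100a4 was higher by 1.27, and S100a3, S100a6 and S100a16 differed by -0.80, -0.62 and -0.12. These values are the same with percentile scaling by construction, since both scalings shift each array by a constant. With quantile normalization, which does not, S100a4 was above the median gene by 1.19, and S100a3, S100a6 and S100a16 differed from it by -0.64, -0.54 and -0.20.

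**Figure D5:**
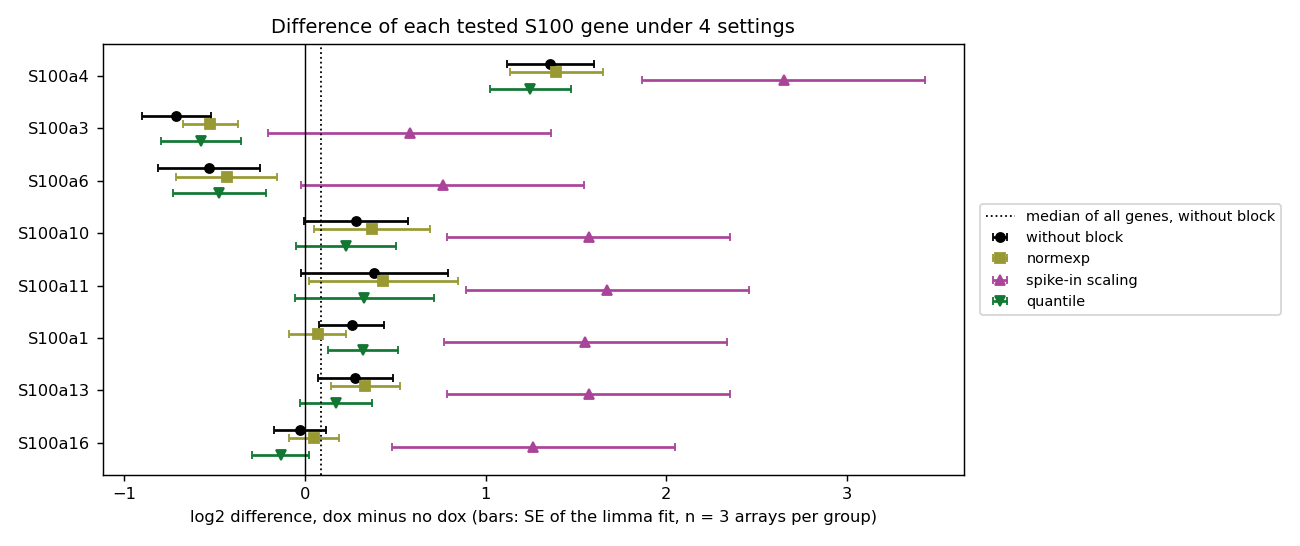
Log2 difference, with minus without doxycycline, of each tested S100 gene with percentile scaling (black), normexp background correction (olive), spike-in scaling (purple) and quantile normalization (green); bars are SE from limma (n = 3 arrays per group) and the dotted line is the median of all genes with percentile scaling. S100a4 has the highest and S100a3 the lowest difference of the 8 under each of the settings drawn, and spike-in scaling moves all 8 to the right of 0.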

How the data were processed

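Cy3-labelled RNA was measured on 8 Agilent 1-colour arrays of 1 slide, scanned together. The authors deposited scanner files whose processed signals are spot intensity on a linear scale. Per the file headers these came from Feature Extraction 10.7.3.1 (grid built on mm9), and the submitters' processing notes give 10.7.1.1, with limma. A second file deposited by the authors holds log2 values, and no source used here states how these were normalized. Of its 8 columns 6 tracked the scanner values of another array, so it served as an alternative only, both as named and reassigned.

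Control spots and outlier-flagged spots (114 to 246 per array) were left out, and 0 spots were saturated. Log2 signals were set relative to each array's 75th percentile, and the spots of a probe were averaged. RefSeq accessions named 26582 of 55681 probes, with 29099 unnamed. A probe was kept if well above background on all 3 arrays of at least 1 group, and each gene was represented by its brightest kept probe. Levels of different probes are not comparable. Group differences were tested two-sided in limma 3.58.1 (R 4.3.3). P-values were adjusted by Benjamini-Hochberg across 14503 genes, and the threshold was 0.05. The number of arrays limits the precision.

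Arrays of equal number deviated together from their group means (r = 0.65, 0.45 and 0.43), so the numbers were taken to pair the samples, and calls with the replicate block are given where they differ. The labels do not name a shared culture. The main fit was set up without a block, and it and the fits with 1 array left out ignore this pairing.

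The S100 genes, the 8 lists of partners and markers and the rules were chosen with earlier results of these data known. All 10 S100 genes are named. From other lists the genes past the threshold are named, up to 6 each, or the brightest where none passed, with those called under the block (up to 6 each) and Ager, Tlr4, Myh9, Runx1, S100a2 and S100a5 added after their values were seen. Nearest profiles were sought for S100a4 and for the brightest S100 gene that did not pass. Probe and protein sequences were not used here.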

Additional observations from a re-analysis of the deposited data

Results flagged for a closer look

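The technical repeat arrays entered only an alternative fit, given below. On the induced one 7 of the 8 tested S100 genes had their highest level of all 8 arrays. Over all genes this was so for 41.0%. The levels there were 3.67 for S100a4, 8.32 for S100a6, 7.48 for S100a10 and 6.78 for S100a11. They were 4.19 for S100a13, 2.80 for S100a16 and -0.15 for S100a1. The highest replicate arrays read 3.46, 8.20, 7.0, 6.49, 3.86, 2.73 and -0.72 for the same genes in that order, and the uninduced technical repeat 1.92, 8.29, 6.49, 5.59, 3.55, 2.58 and -1.25. S100a3 was the exception, at -2.94. Which replicate's RNA this array holds is not stated, and the levels were not tested. The median gene was higher by 0.26 on the induced than on the uninduced technical repeat.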

How the results depend on the processing

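The count of S100 genes that rose was 1 under 10 of the 12 alternatives that kept all replicate arrays. It was 0 with no filter on dim probes and with the authors' log2 table read by its column names. Spike-in scaling was among the 10, but its test was against no difference although the median gene differed by 1.38. Leaving out 1 array at a time gave 0 to 1. With the replicate block 1 S100 gene fell. The alternative that adds the technical repeats may count the same RNA more than once, since their source is not named. All genes changed numbered 915, and 0 in the table as named, 534 with no filter, 2346 with the replicate block, 1585 with technical repeats as a 4th array of each group and 358 to 822 without 1 array. Over the single genes named, 610 values kept direction and side of the threshold, 92 kept direction without passing, 13 newly passed and 68 changed sign. Most sign changes came from 2 settings. In the authors' table as named, differences were -0.32 for S100a4, -0.14 for S100a1, -0.44 for S100a10, -0.71 for S100a11, 0.072 for S100a16, 0.11 for S100a2, -0.27 for Ager, -0.12 for Myh9, -0.15 for Caprin2, -0.019 for Ccr2, 0.15 for Csf1r, -0.38 for Ctsg, 0.16 for Dlc1, -0.17 for Emb, 0.22 for Eng, 0.25 for Fgf1, 0.22 for Runx1, -0.25 for Sh2b2, 0.33 for Sox17, -0.34 for Strip2, 0.24 for Tek, 0.37 for Thy1 and -0.36 for Tpm1. With columns reassigned to the array they track, S100a4 rose. With spike-in scaling, the differences were 0.58 for S100a3, 0.76 for S100a6, 1.26 for S100a16, 1.23 for S100a2, 1.28 for S100a5, 0.36 for Alcam, 1.24 for Anxa2, 0.54 for Anxa3, 0.72 for Bcar3, 0.84 for Castor2, 0.34 for Cd14, 0.24 for Dlc1, 0.38 for Eng, 0.37 for Ly96, 0.35 for Plat, 0.88 for Rsph9, 0.27 for Runx1, 0.16 for Tek and 0.56 for Tlr4. Ager was -0.32 with normexp. The other sign changes were of differences near 0. Anxa2 was 0.11 in the reassigned table, 0.10 with median centring, 0.0020 with normexp, 0.049 with quantile normalization and 0.0024 with technical repeats, S100a2 was 0.061 in the reassigned table, 0.10 with median centring and 0.079 with quantile normalization, and S100a5 was 0.18, 0.15, 0.13 and 0.052 in the reassigned table, with median centring, with quantile normalization and with technical repeats. Myh9 was -0.046 with technical repeats. S100a16 was 0.13 with median centring, 0.050 with normexp and 0.034 with technical repeats. Without 1 array, the differences ran from -0.13 to 0.16 for S100a5, from -0.10 to 0.024 for S100a16, from -0.14 to 0.0075 for S100a2, from -0.056 to 0.091 for Myh9 and from -0.13 to 0.021 for Anxa2. The cause of these changes was not tested. The slide was not run as a block because all arrays are on 1 slide. Normexp used the median signal, since the files used here hold no mean signal. Dim signals limit S100a8 and S100a9, for which no difference could be judged.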
